A study of Mus musculus with 32 samples.

Results

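The transcripts described here encode the AMPA-type glutamate receptor and the proteins that sit with it in the membrane. The members are 9 listed genes, the pore-forming subunits Gria1, Gria2, Gria3 and Gria4, the transmembrane AMPA receptor regulatory proteins (TARPs) Cacng2, Cacng3 and Cacng8, and the cornichons Cnih2 and Cnih3, found by symbol among the 44081 genes counted on 3′UTRs. Their listed 3′ ends number 24 of 74532. The RNA came from primary hippocampal neurons of C57BL/6 mouse embryos (E18), which had no treatment named in the labels and were kept in culture for 15 days. The dendrites and the soma of each of 16 neurons were drawn into separate pipettes, so the 32 libraries form 16 pairs, each of 1 dendrite sample and 1 soma sample of the same neuron. Poly-adenylated RNA was amplified by in vitro transcription (the aRNA method), with 3 rounds for neurons 1 to 4 and 2 rounds for the other 12 neurons. The question was which of these transcripts reach the dendrite, and in which neurons.

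AMPA receptors are tetramers that carry most of the fast excitatory current in the brain, and their number at the synapse changes in long-term potentiation and depression. The mix of GluA subunits sets how a receptor conducts. A receptor that contains GluA2, the product of Gria2, lets little calcium through because of an edited residue in its pore, whereas receptors without it, which are common in many inhibitory interneurons, are calcium-permeable. TARPs bring the receptor to the surface, anchor it at the postsynaptic density and slow its closing, and cornichons act on its export from the endoplasmic reticulum and on its kinetics. Dendrites hold ribosomes, and mRNA of some receptor subunits has long been known to be present there.

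In the GENCODE annotation of GRCm38 (the same assembly as the mm10 build of the files), the members differ widely in the length of the 3′UTR, where elements for localization usually lie. All the annotated 3′UTR sequence of Gria2 (chr3:80681450-80802835, minus strand) covers 7268 bases, which is at the 98.6 percentile of 20990 coding genes, whose median is 1016 bases. Cacng2 (chr15:77991748-78120028, minus strand) follows with 3401 bases, Gria4 (chr9:4417896-4796234, minus strand) with 2813, Gria1 (chr11:57011387-57330244, plus strand) with 2598 and Gria3 (chrX:41400854-41678601, plus strand) with 2264. Cnih3 (chr1:181352628-181460641, plus strand) has 1389 bases and Cnih2 (chr19:5092868-5098521, minus strand) 602. Cacng3 (chr7:122670492-122769393, plus strand) has 547 and Cacng8 (chr7:3390683-3415648, plus strand) 414. The full-length coding transcript of Cacng8 has just 43 of those bases.

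Since aRNA amplification starts at the poly-A tail, the transcript ends with a canonical polyadenylation hexamer are shown here. The comparison of genes below uses reads over the whole 3′UTR, not the ends alone. The median share of these reads inside listed 3′ ends was 5.31% in somas and 20.1% in dendrites for Gria2. For Cacng2 it was 33.7% and 36.6%. The hexamer AATAAA, searched on the transcript strand, lies in the last 50 bases of 7 of the 16 annotated coding ends of the members that have a 3′UTR of at least 50 bases, or 43.8%. The share among all 36975 such ends of the annotation is 53.1%. The lines give 30 bases around it, with the hexamer in capitals and GRCm38 coordinates.
Gria2-202, the short end of Gria2, chr3:80687798-80687827, minus strand: cttgacatttgaAATAAAcattttttctat
Gria3-201, chrX:41678569-41678598, plus strand: atacattttgtaAATAAAattgtaaagaaa
Gria4-202, chr9:4417900-4417929, minus strand: ttgtaggtgcttAATAAAtatttgttgaat
Cacng2-201, chr15:77991756-77991785, minus strand: cctggtacatgaAATAAAgattttttttta
Cnih2-201, chr19:5092873-5092902, minus strand: tgacaaaatatgAATAAActactgaaaaca
Cacng8-203, a short transcript of Cacng8, chr7:3394918-3394947, plus strand: catggaggtagtAATAAAgtgttgttagct
The 7 ends include a pair of Gria4 ends that share the Gria4 window. Gria2-202 has a 3′UTR of 923 bases. The long Gria2 transcript, Gria2-201, holds 8 copies of the hexamer in 7268 bases, of which 7 lie more than 500 bases from its end and the last lies 55 bases from it. None of the 3 Gria1 ends has the hexamer anywhere in its 3′UTR.

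Reads counted on 3′UTRs numbered 646521 to 6954420 per dendrite sample and 925525 to 21169974 per soma sample. The members together had 1054 to 10198 reads in a dendrite sample and 538 to 47068 in a soma sample. In dendrites 2.39% to 35.8% of the reads were of mitochondrially encoded genes, against 0.277% to 8.12% in somas. Map2, the mRNA of a dendritic microtubule protein, had a median CPM (counts per 1e+06 reads of the library size after edgeR's TMM scaling) of 2302 in dendrites and 366 in somas. The labels call the cells hippocampal neurons without a subtype. Of 7 inhibitory markers, Gad1 and Gad2 had at least 10 reads in all 16 dendrites and all 16 somas. Slc32a1 reached 10 reads in 15 dendrites and 16 somas, Lhx6 in 13 and 15, and Pvalb in 13 and 12. Sst reached 10 reads in 0 libraries and Vip in 2 somas. The sum of the 7 lay between 2074 and 11725 CPM in dendrites and between 1230 and 20333 CPM in somas. The 8 pyramidal and general neuronal markers summed to 1885 to 9476 CPM in dendrites and 2209 to 6652 CPM in somas. Among them Slc17a7 reached 10 reads in 13 dendrites and 10 somas, Camk2a in 13 and 12, Grin1 in 11 and 14, and Neurod6 in 8 of each. The median CPM in dendrites and somas was 47.0 and 4.24 for Slc17a7 and 27.1 and 12.3 for Camk2a. It was 21.2 and 43.1 for Grin1 and 10.8 and 14.0 for Neurod6. Snap25, in the same sum, had medians of 1198 and 2712. Of the inhibitory markers, Gad1 had medians of 1722 and 6990 and Gad2 of 1415 and 2583. Summed astrocyte markers reached 846 CPM in dendrites and 538 in somas, and were at 0 in the lowest sample of each. Oligodendrocyte and precursor markers reached 153 and 135, and microglial markers 384 and 10.9. Of 4 RNAs known from the nucleus, Malat1 had at least 10 reads in 14 dendrites and 15 somas, Meg3 in 14 and 15, Snhg11 in 14 and 16, and Miat in 3 and 9. Whether these reads bear on the members was not tested.

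Every neuron had Gria1 and Gria2 reads in both compartments, and no member had significantly higher or lower CPM in dendrites than in somas. Among the subunits, Gria1, Gria3 and Gria4 had fitted values toward the soma and Gria2 lay at equality. Among the auxiliary proteins, Cacng2 and Cnih2 lay near equality, Cacng3 toward the soma and Cnih3 toward the dendrites. Of the 9 members, 8 passed the filter on low counts (1 read or more in no fewer than 16 libraries), and 0 of these 8 were called by edgeR's quasi-likelihood test with neuron as a block (Benjamini-Hochberg adjusted p at most 0.05 over 10880 genes). The same rule called 0.827% of all genes tested for the dendrites and 5.71% for the somas. Before adjustment, p was under 0.05 for 2 of 8 members, Gria1 and Gria4, both toward the soma, beside 3287 of the 10880 genes. As a median, the log2 fold change (dendrites over soma) was −0.64 over the 8 members and −1.49 over all genes tested, so a gene at 0 on this scale stood above the typical gene. The values by neuron are plotted next.

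**Figure D1:**
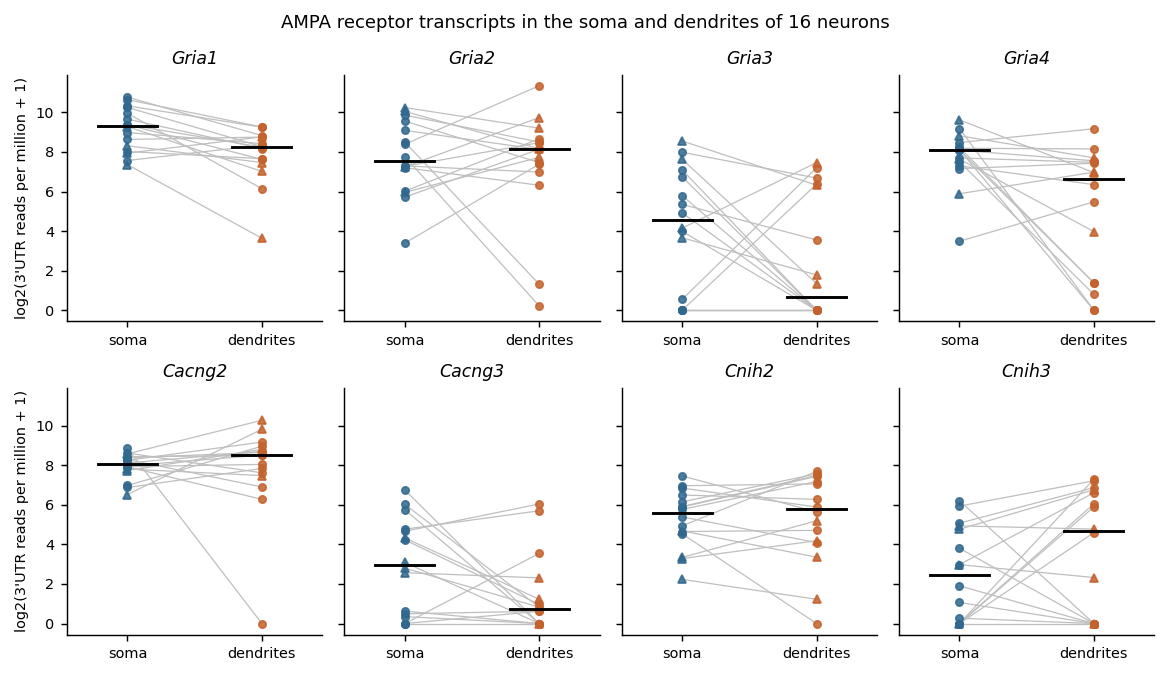
Level of 8 members in the soma (blue) and dendrites (orange) of each neuron, as log2(CPM + 1) of 3′UTR reads; grey lines join the samples of a neuron, circles are the 12 neurons of 2 rounds, triangles the 4 of 3 rounds, and black bars the medians. For Gria1 the soma point is the higher one in 13 of 16 neurons, while Gria2 lines cross and 2 dendrite samples lie close to the bottom.

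Gria1 encodes GluA1, the subunit whose phosphorylation and insertion accompany potentiation. It ranged from 11.4 to 612 CPM in dendrites with a median of 305, and from 163 to 1748 CPM in somas with a median of 642. The ranges overlapped, but the soma had the higher CPM in 13 of the 16 neurons, the exceptions being neurons 2, 7 and 12. The fitted log2 fold change was −1.27 ± 0.52 (SE, n = 16 pairs), with an adjusted p of 0.103 from edgeR's test. Relative to the median gene, that is 0.22 higher, so Gria1 moved about as the typical transcript did. The lowest dendrite value was 14 reads, in neuron 3, whose soma also had the lowest somatic level.

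Gria2 was abundant in some dendrite samples and almost absent from others. It ranged from 0.159 to 2602 CPM in dendrites with a median of 279, and from 9.50 to 1212 CPM in somas with a median of 186. Dendrites were higher in 7 neurons and somas in 9, and the log2 fold change was 0.00 ± 0.73 (SE, n = 16 pairs), with a 95% interval from −1.46 to 1.47 and an adjusted p of 0.997 from edgeR's test. The extremes came from 3 neurons. Neuron 9 had 1 Gria2 read in its dendrites against 4720 in its soma, while Gria1 had 3820 and 28077 reads in the same libraries. Neuron 16 had 2 Gria2 reads in its dendrites against 3947 in its soma, beside 825 and 17500 for Gria1. Neuron 15 had 3932 Gria2 reads in its dendrites, the highest count of any member in any dendrite sample. Its soma had 3090. In the soma of neuron 13 the imbalance was of another kind, with 125 Gria2 reads beside 13014 of Gria1.

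Gria4 encodes GluA4, a subunit with fast kinetics. It ranged from 0 to 576 CPM in dendrites with a median of 102, and from 10.2 to 789 CPM in somas with a median of 272. The soma had the higher CPM in 12 of 16 neurons. The ranges overlapped through the 11 dendrite samples that had at least 10 reads. In the other 5 neurons the dendrite sample held 0 to 3 reads, below the somatic range in CPM, while their somas held 504 to 5369. The log2 fold change was −2.10 ± 1.03 (SE, n = 16 pairs, edgeR adjusted p = 0.158).

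Gria3 encodes GluA3 and was found in fewer libraries. It was at 0 reads in 8 dendrites and 4 somas, and ranged up to 175 CPM in dendrites (median 0.774) and 375 CPM in somas (median 23.1). In neurons 8, 9 and 16 neither compartment had a read. Dendrites were higher in neurons 2, 5 and 13, where neuron 5 had 189 dendritic Gria3 reads against 1 somatic read. The log2 fold change was −3.25 ± 1.65 (SE, n = 16 pairs, edgeR adjusted p = 0.172), and its 95% interval ran from −6.56 to 0.06.

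Cacng2 encodes stargazin, the first TARP described. It ranged from 0 to 1237 CPM in dendrites with a median of 362, and from 90.8 to 461 CPM in somas with a median of 263. Dendrites were higher in 11 of 16 neurons. Somatic levels were the least variable of the members, with a coefficient of variation of 38.4% against 80.3% in dendrites, and the dendritic range enclosed the somatic one. The 0 came from neuron 15, whose soma had 4260 reads. The log2 fold change was 0.24 ± 0.65 (SE, n = 16 pairs, edgeR adjusted p = 0.809), which is 1.73 above the median gene.

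Cacng3 and Cacng8 encode TARPs that are prominent in forebrain excitatory neurons. Cacng3 had at least 10 reads in 3 dendrites, those of neurons 9, 10 and 11, and in 9 somas. It reached 64.9 CPM in dendrites (median 0.655) and 107 in somas (median 6.73), and its log2 fold change was −2.33 ± 1.58 (SE, n = 16 pairs, edgeR adjusted p = 0.298). Cacng8 had 1 read on its 3′UTR in all 32 libraries, in the soma of neuron 13, and was not tested. It has the shortest annotated 3′UTR of the members, and on exons it reached 10 reads in 1 library, the soma of neuron 11.

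Cnih2 encodes the cornichon best known from hippocampal AMPA receptors. It ranged from 0 to 206 CPM in dendrites with a median of 53.6, and from 3.70 to 175 CPM in somas with a median of 47.2. Dendrites were higher in 9 neurons and somas in 7, and the ranges overlapped almost wholly. Its log2 fold change was 0.10 ± 0.89 (SE, n = 16 pairs, edgeR adjusted p = 0.945). Cnih3, its close relative, ranged from 0 to 156 CPM in dendrites (median 24.8) and from 0 to 73.2 CPM in somas (median 4.80). It had at least 10 reads in 9 dendrites and 9 somas, and in neurons 9, 10, 11 and 13 it was present in the dendrites with 113 to 367 reads and at 0 in the soma. Its log2 fold change was 1.19 ± 1.73 (SE, n = 16 pairs, edgeR adjusted p = 0.639). That was the highest fitted value of the 8 members and also the least precise.

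**Figure D2:**
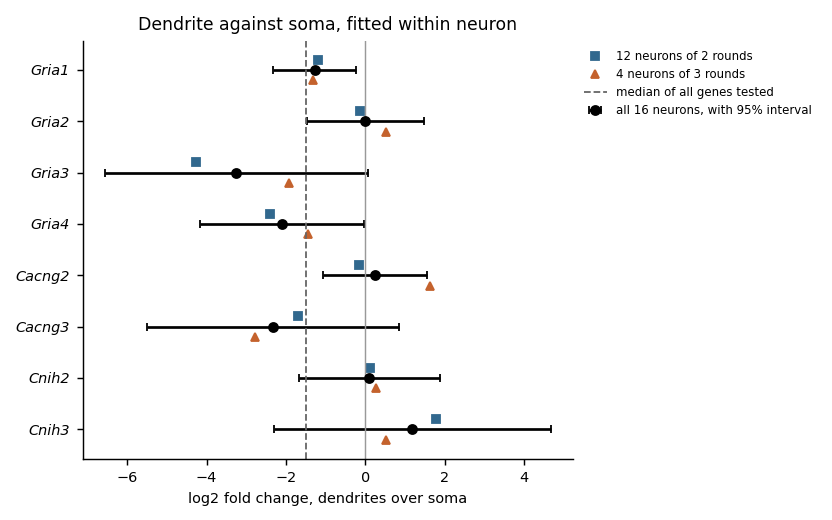
Fitted log2 fold change of dendrites over soma for the 8 members tested, with 95% intervals over all 16 neurons (black) and point estimates from the 12 neurons of 2 rounds (blue squares) and the 4 of 3 rounds (orange triangles). The solid grey line is equality and the dashed line the median of all genes tested, −1.49; 6 of the 8 intervals include 0, and those of Gria1 and Gria4 end just below it.

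The calls depended on the tool. DESeq2 called Gria1, Gria3 and Gria4 higher in somas, with log2 fold changes of −1.52, −4.12 and −2.42, beside 46.2% of all genes tested called in that direction and 4.26% in the other. When dendrites were rescaled so that the median gene lay at 0, edgeR called 0 members, beside 5.04% of genes for the dendrites and 0.846% for the somas, and the value of Gria1 changed sign, to 0.22.

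The number of amplification rounds was set per neuron, so it could be compared within the same contrast. In the 12 neurons of 2 rounds and the 4 of 3 rounds, the log2 fold changes were −1.20 and −1.31 for Gria1, −0.13 and 0.51 for Gria2, −4.27 and −1.91 for Gria3, and −2.40 and −1.45 for Gria4. For Cacng2 they were −0.15 and 1.63, the widest gap relative to its error, with a difference of 1.58 ± 1.50 (SE, edgeR interaction test, p = 0.295). All 8 members had an adjusted p of 1 in that interaction test, which called 0 of 10880 genes (288 at an unadjusted p under 0.05, and 43 by DESeq2).

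Seen as presence in the dendrite, the members fell into 3 tiers. Gria1 and Gria2 had at least 1 read in 16 of 16 dendrites, Cacng2 and Cnih2 in 15 and Gria4 in 14. Cacng3 and Cnih3 had a read in 10 dendrites, Gria3 in 8 and Cacng8 in 0. Thus 4 of the 9 members were in at least 15 dendrites, beside 4.23% of all genes listed and 17.1% of the genes tested. With a minimum of 10 reads, Gria1 stayed at 16, Cacng2 at 15 and Gria2 came to 14, Cnih2 to 13, Gria4 to 11, Cnih3 to 9, Gria3 to 6 and Cacng3 to 3. After all libraries were sampled down to the size of the smallest, 646521 reads, the count of dendrites was 16 for Gria1, 15 for Gria2 and Cacng2, 14 for Cnih2, 13 for Gria4, 10 for Cnih3, and 7 each for Gria3 and Cacng3. A single neuron's dendrites held from 2 members at 10 or more reads (Gria1 and Gria2 in neuron 15) to 8 (neuron 11). The soma of neuron 15 held 8, and the 6 members missing at that level from its dendrites were at 0 reads there.

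Because subunits assemble in ratios, each member was also set against Gria2 inside the same library, which removes library scaling. The difference between compartments in log2((member + 0.5)/(Gria2 + 0.5)) was −0.77 ± 4.19 (SD, n = 16 neurons) for Gria1, with the ratio higher in the dendrites of 6 neurons. For Gria4 it was −2.63 ± 5.44 (SD, n = 15), with the ratio higher in the soma in 12 of 15 neurons, and for Gria3 −2.52 ± 5.55 (SD, n = 14). For the auxiliary proteins it was 0.32 ± 5.08 (SD, n = 16) for Cacng2, −1.19 ± 6.24 (SD, n = 15) for Cacng3, 0.47 ± 4.65 (SD, n = 16) for Cnih2 and 2.54 ± 7.42 (SD, n = 15) for Cnih3. None of the 7 ratios differed by more than the spread between neurons. The smallest p was that of Gria4, 0.0824 (exact sign-flip permutation test, two-sided, 0.396 after Benjamini-Hochberg adjustment over the 7 ratios), in a design whose smallest possible p is 6.10e-05. Where a library held 0 to 3 reads of a gene, as for Gria2 in the dendrites of neurons 9 and 16, the ratio of that neuron was set largely by the pseudocount.

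The share of each subunit among the 4 pore-forming transcripts was computed per kilobase of annotated 3′UTR. In dendrites Gria1 took a median of 49.7% (3.44% to 99.8%). In somas it took 59.9% (19.2% to 88.0%). It was the largest of the 4 in 11 dendrites and 13 somas. Gria2 took a median of 17.1% in dendrites (0.00729% to 91.6%) and 7.11% in somas (0.302% to 28.4%). Gria4 took 13.9% (0% to 52.2%) and 17.5% (3.06% to 44.2%), and Gria3 0.226% (0% to 31.1%) and 5.23% (0% to 22.7%). Gria2 was the largest in the dendrites of neurons 1, 3 and 15 and in 0 somas. Gria4 was the largest in the dendrites of neurons 11 and 13 and in the somas of neurons 3, 4 and 7. In 9 of 16 neurons the same subunit was the largest in both compartments, and in all 9 it was Gria1. These ranks depend on the division by length, since by reads alone Gria2 was the largest in 8 dendrites and 4 somas and Gria1 in 6 and 11. By reads the same subunit was the largest in both compartments of 8 neurons, Gria1 in 5 and Gria2 in 3 (neurons 1, 4 and 14). These are shares of amplified reads, and no test was run on them.

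**Figure D3:**
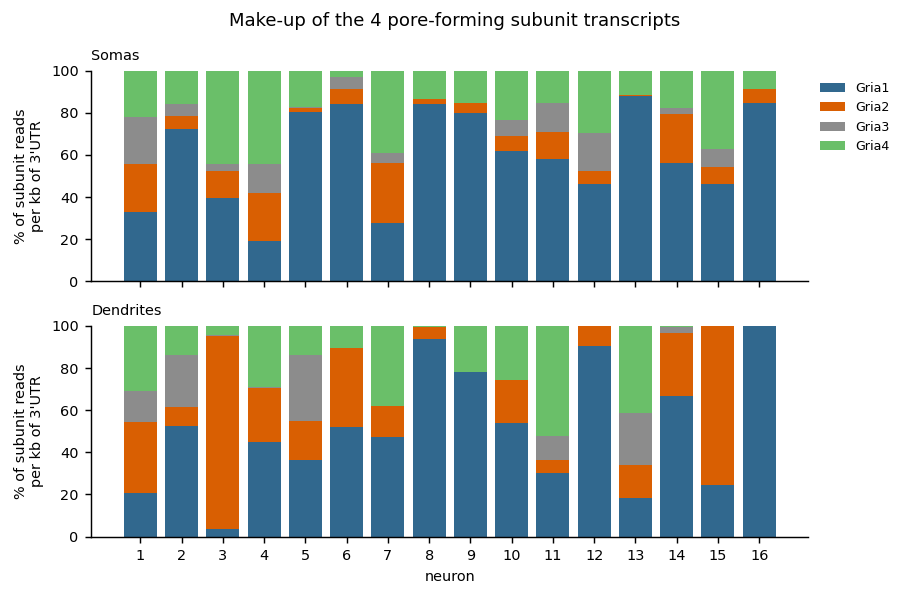
Share of Gria1, Gria2, Gria3 and Gria4 among their summed 3′UTR reads per kilobase of annotated 3′UTR, as stacked percentages for the soma (top) and the dendrites (bottom) of each neuron. Gria2 fills 91.6% of the dendrite bar of neuron 3 and is at most 28.4% of any soma bar.

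Across all members, levels per kilobase of 3′UTR gave the order Gria1, Cacng2, Cnih2, Gria2, Gria4, Cnih3, Cacng3, Gria3 and Cacng8 in dendrites, with medians of 117, 106, 89.0, 38.4, 36.2, 17.8, 1.20, 0.342 and 0 CPM per kilobase. No neighbours in that order differed beyond their spread (exact sign-flip permutation tests on log2 levels, two-sided, adjusted over 8 neighbours), and Cacng8, at 0 reads in all 16 dendrites, gives no measure of size. In somas the order was Gria1, Gria4, Cnih2, Cacng2, Gria2, Cacng3, Gria3, Cnih3 and Cacng8, with medians of 247, 96.7, 78.4, 77.3, 25.6, 12.3, 10.2, 3.46 and 0. There Gria1 exceeded Gria4 in 13 of 16 neurons, by 1.53 ± 1.50 on the log2 scale (SD, n = 16, exact permutation test, adjusted p = 0.00586). Cacng2 exceeded Gria2 in 12 of 16, by 1.25 ± 1.61 (SD, n = 16, exact permutation test, adjusted p = 0.0170). That difference depends on the division by length. By reads alone, the log2 ratio of Cacng2 to Gria2 in somas was 0.24 ± 1.76 (SD, n = 16), and its distance from 0 was not tested. Cnih3 stood next to Cacng8, which was at 0 reads in 15 somas, and no size is given for that difference. The lengths come from GENCODE, whereas the counted regions also included extended 3′UTRs, so the order holds for these lengths alone.

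The 3′ end features, which cover the final 500 bases before an end and merge ends that lie closer, separate the isoforms of a gene. They carry a number per gene and no position, so which end is proximal cannot be read from them. Of the 24 ends, 11 passed the filter and 1 was called by edgeR, end 3 of Gria4, which was higher in somas with a log2 fold change of −3.76 ± 1.27 (SE, n = 16 pairs, adjusted p = 0.0393). The rule called 16.9% of the 10652 ends tested higher in somas and 0.723% higher in dendrites. End 3 of Gria4 had a read in 5 dendrites and 12 somas, and 38 reads in all dendrites against 1408 in all somas. Its call was lost in 10 of the 16 fits that left out a neuron (1, 3, 4, 8, 9, 10, 12, 13, 15 or 16), and over all 16 omissions the adjusted p lay between 0.0225 and 0.0927. The other Gria4 ends had −2.08 ± 1.49 (end 1, adjusted p = 0.279) and −3.57 ± 1.41 (end 2, adjusted p = 0.0667) in the same edgeR fit. End 2 of Gria1, which held 8857 of the gene's reads in dendrites and 79949 in somas, had −1.56 ± 0.59 (SE, adjusted p = 0.0573). End 1 of Gria3 had −4.72 ± 1.85 (SE, adjusted p = 0.0660). End 1 of Cacng3 had −2.39 ± 1.54 (SE, adjusted p = 0.233). Closer to 0 lay end 1 of Cacng2 at −0.46 ± 1.08 (SE, adjusted p = 0.749) and its end 2 at −0.08 ± 1.03 (SE, adjusted p = 0.956). End 1 of Cnih2 had −0.06 ± 0.87 (SE, adjusted p = 0.958). On the other side of 0, end 2 of Gria2 had 2.24 ± 1.41 (SE, adjusted p = 0.222) and end 2 of Cnih3 2.46 ± 1.56 (SE, adjusted p = 0.228). The median of all ends tested was −2.14. DESeq2 called 6 of the 11 ends for the somas, beside 60.2% of all ends tested, and 2 for the dendrites, beside 2.09%.

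End 2 of Gria2 was uneven between neurons. Dendrites held 5120 of its reads, of which 3932 came from neuron 15 and 627 from neuron 11, and somas held 2226. The level was higher in the dendrites of 11 neurons and in the somas of 4. In neuron 15 all 3932 dendritic Gria2 reads lay in this end, whereas 0 of the 3090 somatic reads did.

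That contrast appears again in the share of a gene's 3′UTR reads that fell inside any of its listed ends. For Gria2 this was a median of 5.31% in the 16 somas (0% to 15.3%) and 20.1% in the 14 dendrites with at least 10 reads (0% to 100%). Most Gria2 reads thus lay elsewhere on its long 3′UTR region in all 16 somas and in 11 of the 14 dendrite samples. For comparison, the median over the genes with at least 1000 reads was 95.8% in somas (9028 genes) and 95.3% in dendrites (4817 genes), and pooled Gria2 stood at the 2.13 percentile of them in somas. Within neurons the dendritic share of Gria2 exceeded the somatic one by 23.2 ± 35.7 percentage points (SD, n = 14, higher in 10 of 14 neurons), with p = 0.0160 in the exact sign-flip permutation test (two-sided), adjusted p = 0.0800 over 5 members. This comparison was chosen after the values were seen. It rests in part on the dendrites of neurons 8, 11 and 15, at 87.1%, 72.0% and 100%. Cacng2 was the other member with few reads in listed ends, with medians of 33.7% in somas and 36.6% in dendrites. Gria1 stood at 79.0% and 80.4%, Gria4 at 75.1% and 70.7%, and Gria3, Cnih3, Cnih2 and Cacng3 at 92.5% or more in both. For Gria1, Gria4, Cacng2 and Cnih2 the adjusted p of the difference was 0.664 or more in the same exact test.

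**Figure D4:**
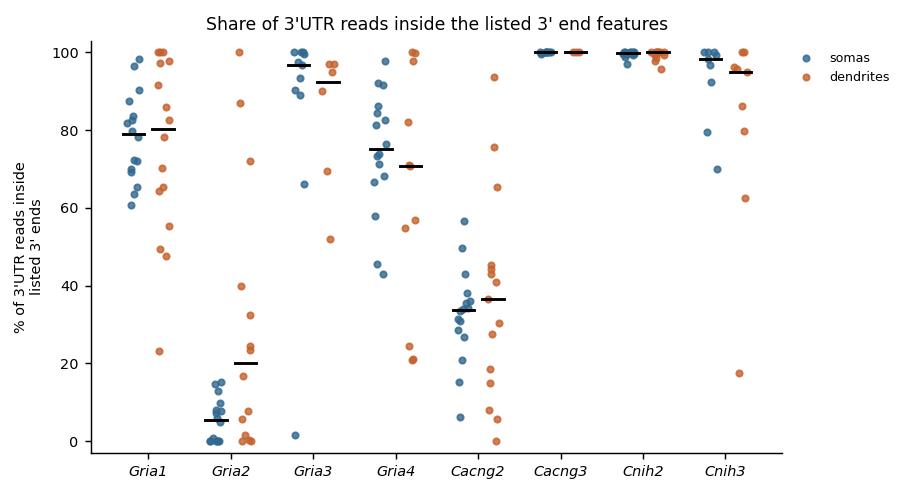
Percentage of the 3′UTR reads of each member that lay inside its listed 3′ end features, for every soma (blue) and dendrite (orange) sample with at least 10 reads, with medians as black bars. Gria2 somas all lie at or below 15.3%, Gria2 dendrites spread from 0% to 100%, and Cnih2 and Cacng3 lie near 100% throughout.

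Choice between the 2 most used ends of a gene was compared by an exact signed-rank test within neurons, in the members with at least 10 reads on those ends in both compartments of at least 5 neurons. Gria1, Gria4, Cacng2 and Cnih3 qualified, and none had p under 0.1, the limit used, which 8.40% of the 3522 genes tested passed and 0 of them after adjustment. End 2 of Gria4, against end 1, took 55.9% ± 36.5 in dendrites and 65.5% ± 30.1 in somas (SD, n = 11 neurons, exact signed-rank p = 0.465). In single neurons it ran from 0% (dendrites of neuron 10) to 100% (dendrites of neuron 3). End 2 of Cacng2, against end 1, took 30.8% ± 25.7 in dendrites and 24.6% ± 17.5 in somas (SD, n = 14, exact signed-rank p = 0.426). Gria1 used end 2 almost alone, since end 3 took 0.302% ± 1.16 of the reads on both in dendrites and 0.0192% ± 0.0608 in somas (SD, n = 15, exact signed-rank p = 1). For Cnih3 the share of end 3 against end 2 was 20.7% ± 13.4 in dendrites and 18.8% ± 40.7 in somas (SD, n = 5, exact signed-rank p = 0.625).

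The comparisons so far are relative to each library's reads, and spiked-in ERCC RNA gives a scale that is common to both compartments of a neuron. In the 14 neurons that received it (3 to 16), exon reads divided by spike-in reads placed a median of 17.3% of all gene reads in the dendrites, from 3.55% to 65.7%. This all-gene share is of summed reads, so it is not the share of the typical gene. Gria1 had a median of 6.98% of its reads in the dendrites (1.24% to 45.5%) and exceeded the all-gene share of its neuron in 3 of 14 neurons. For Gria2 the median was 14.9% (0.00673% to 93.9%, above in 6 of 14) and for Gria4 5.71% (0% to 92.8%, above in 4 of 14). Cacng2 had 23.6% (0% to 79.5%, above in 9 of 14) and Cnih2 20.2% (0% to 74.3%, above in 10 of 14). Cnih3, with at least 10 exon reads in 10 neurons, had 83.1% (0% to 100%, above in 8 of 10). Neuron 5 had the highest share of all genes in its dendrites and the highest of Gria1, Gria2, Gria4 and Cacng2 as well. In an edgeR fit scaled to the spike-in, 5 members were called higher in somas, Gria1 (−3.86), Gria2 (−2.45), Gria3 (−4.45), Gria4 (−4.91) and Cacng3 (−4.64), beside 62.7% of the 9804 genes tested in that direction and 0.153% in the other, with a median of −4.11. Cnih3 kept a value above 0 in that fit, 1.36 ± 2.20 (SE, n = 14 pairs, adjusted p = 0.572). Relative to the median gene of the fit, Gria1 lay at 0.25, Gria2 at 1.67, Cacng2 at 1.92, Cnih2 at 2.16 and Cnih3 at 5.47. Gria3 lay at −0.34, Gria4 at −0.79 and Cacng3 at −0.53.

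**Figure D5:**
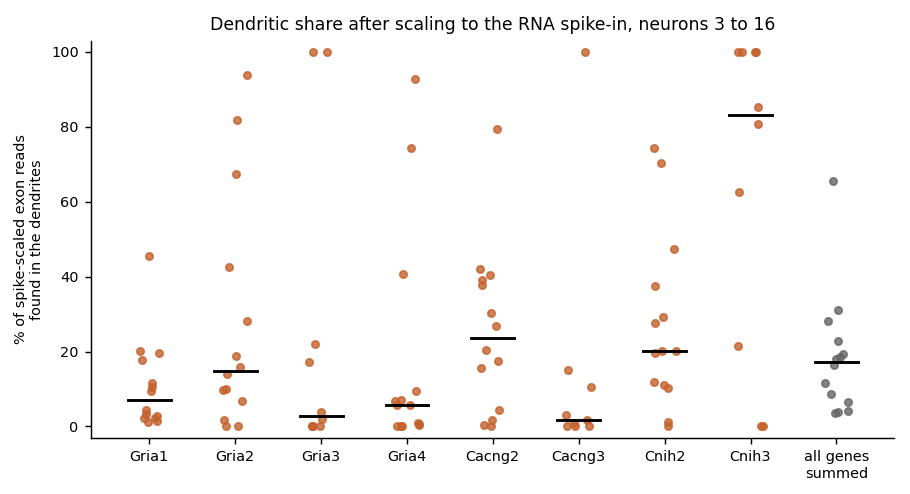
Percentage of a neuron's spike-scaled exon reads found in its dendrites, for each member (orange) and for all genes summed (grey), in the neurons 3 to 16 with at least 10 exon reads of the gene in the pair; black bars are medians. Gria1 has a median of 6.98% and Cnih3 of 83.1%, beside 17.3% for all genes summed, which is not the share of the typical gene.

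The correlation between levels in the dendrites and in the soma of the same neuron varied by member, and no test was run on it. Spearman's rho over the 16 neurons was 0.57 for Cnih2 and 0.41 for Gria1, 0.18 for Gria2, 0.14 for Gria3 and 0.05 for Gria4, and −0.23 for Cacng2. For Cacng3 and Cnih3 it was 0.11 each. Within dendrites, Gria1 and Gria2 ran opposite to each other (rho = −0.68, n = 16), whereas in somas rho was 0.07. The pairs of members named here were picked from all pairs, without a test. The points share library scaling and depth. Somatic Gria2 followed Gria4 (rho = 0.76) and Gria3 (rho = 0.64), and in dendrites these values were −0.07 and 0.13. Among 6875 genes with a median of at least 10 reads, those most like Gria1, by the mean of rho over the 16 dendrites and over the 16 somas, were Gabrb2 (0.77), which encodes a GABA-A receptor subunit, and Aars (0.74), an alanyl-tRNA synthetase. The most like Gria2 were Kcnc1 (0.68), a fast potassium channel subunit, A230070E04Rik (0.65) and Ppargc1a (0.65), a regulator of mitochondrial genes. These are descriptions of 16 points per compartment, picked as the highest of many.

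Other genes of the AMPA receptor pathway gave a list of 33, of which 32 were in the table and 26 were tested. By edgeR's test 2 were called higher in somas and 0 in dendrites, beside the 5.71% and 0.827% of all genes given above, and 5 had p under 0.05 before adjustment. Over the 26 genes the median of the log2 fold changes was −1.28, and 15 lay above the median gene. Akap5, the anchor that brings kinases and calcineurin to the receptor, had −6.13 ± 1.36 (SE, n = 16 pairs, edgeR adjusted p = 0.0117), with medians of 1.01 CPM in dendrites and 168 in somas and the soma higher in all but 2 neurons. Adar, which encodes the editing enzyme ADAR1, had −3.44 ± 1.10 (SE, n = 16 pairs, edgeR adjusted p = 0.0481), with medians of 8.50 and 84.8 CPM and the dendrites higher in 1 neuron. Akap5 stayed called in all 16 fits that left out a neuron, while Adar lost its call in 13 of them, for every neuron but 2, 5 and 11. Akap5 was not called without the block, at −2.35 ± 0.89 (SE, edgeR adjusted p = 0.170). It was also not called in the 4 neurons of 3 rounds, at −1.07 ± 1.94 (SE, edgeR adjusted p = 0.958). In the 12 neurons of 2 rounds it was called, at −7.11 ± 1.52 (SE, edgeR adjusted p = 0.0151). Adar was also not called after rescaling, without the filter, with the filter at 10 reads, without the block, with exon counts, without mitochondrial genes, with equal read numbers or in either group of rounds alone. The 3 genes above 0 were Adarb1, whose enzyme edits the pore residue of GluA2, at 0.53 ± 0.90 (adjusted p = 0.689), Dlg4 (PSD-95) at 0.36 ± 0.90 (adjusted p = 0.792) and Nptxr, the neuronal pentraxin receptor, at 0.05 ± 1.32 (adjusted p = 0.982), all from edgeR. By role, 0 of 13 auxiliary and assembly genes, 0 of 3 extracellular organisers, 1 of 8 binding and traffic genes and 1 of 2 editing genes were called.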

How the data were processed

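RNA was measured in the dendrites and the soma of 16 neurons, grouped as the labels give them and paired by neuron. The authors trimmed the reads, aligned them to mm10 with STAR (2.4.0 in the submitters' processing notes) and counted uniquely mapped reads by strand with VERSE. All deposited values are raw read counts: per gene on the union of its 3′UTRs, per 3′ end feature, and per gene on exons, where the ERCC spike-ins are also listed. No molecular identifiers were used, so reads are not independent molecules, and the spread between neurons gave every error.

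Genes and ends with at least 1 read in at least 16 libraries were compared with edgeR 4.0.16 (TMM, robust quasi-likelihood fit, neuron as a block) in R 4.3.3, with DESeq2 1.42.0 as an alternative, at an adjusted p of 0.05. edgeR and the signed-rank step were tested on simulated data. There edgeR missed most genes given a log2 change of −2 or 2, so a member that was not called may still differ. SciPy 1.17.1 and NumPy 2.4.6 under Python 3.11 gave all other values, with tables read in pandas 2.3.3. Ratios used a pseudocount of 0.5 and neurons with at least 10 reads of the member and Gria2 together in each compartment, in at least 8 neurons. P-values measure the spread between cells whose cultures and litters the labels do not name.

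Samples were paired because both were taken from the same cell. After removal of compartment means, the correlation across genes was 0.0887 ± 0.0772 (SD, n = 16) within neurons and −0.00559 ± 0.0526 (SD, n = 240) between them. No libraries within a compartment had identical counts (0 pairs).

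Lengths, coordinates and sequences came from GENCODE M21, which is not the annotation the authors counted on. The text names all 9 members, those of their ends that passed the filter, the 2 pathway genes called and those above 0, and the 3 genes most like each of Gria1 and Gria2, of which 1 is not reported here. Members and lists were chosen with earlier results of these data known. Alternatives covered the tool, scaling, filters, the block, exon counts, spike-in scaling, mitochondrial genes, read numbers, rounds and each neuron left out.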

Additional observations from a re-analysis of the deposited data

Results flagged for a closer look

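Cacng8 was outside the comparisons, with 1 read on 3′UTRs in all libraries, yet its exons held 37 reads in the soma of neuron 11, above the 3 reads that a count of 0 allows. The dendrites of the same neuron had 2 exon reads, and 3 other somas brought the somatic sum to 41.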

How the results depend on the processing

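No member was called higher in dendrites on 3′UTR counts under any of the alternatives run. The count called higher in somas rose from 0 to 3 with DESeq2 and to 5 with exon counts scaled to ERCC, and was 0 in every other setting, leaving out any neuron included. Without the replicate block for neuron it was also 0, with log2 fold changes of −1.26 for Gria1, 0.13 for Gria2, −1.05 for Gria3, −1.18 for Gria4, 0.54 for Cacng2, −1.27 for Cacng3, 0.53 for Cnih2 and 1.67 for Cnih3, and the calls on end 3 of Gria4 and on the pathway list were lost (0 each). Among 3′ ends, the 1 call for somas became 6 with DESeq2 (with 2 for dendrites), 4 with RLE size factors, 0 without the filter, with at least 10 reads in 16 libraries, with either group of rounds alone and with dendrites rescaled, and 0 to 2 when a neuron was left out. The pathway list had 13 genes called higher in somas with DESeq2 and 1 after rescaling, and 2 members rather than 4 were in 15 dendrites at 10 reads. The cause of these changes was not tested.

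With exon counts, the values of Gria1, Gria3 and Gria4 were −0.78, −1.96 and −1.11. Signs turned mainly where a value lay near 0. Gria1 came to 0.22 after rescaling, and its end 2 to 0.58. Gria2 became −0.28 with DESeq2 and −0.28 with RLE factors, −0.071 without the filter, −0.13 in neurons of 2 rounds, −2.45 with ERCC scaling and −0.23 to 0.57 with a neuron left out. Cacng2 became −0.048 with DESeq2 and with RLE factors, −0.15 in neurons of 2 rounds and −2.19 with ERCC scaling. Cnih2 became −0.14 with DESeq2, −0.17 with RLE factors, −1.95 with ERCC scaling and −0.080 to 0.59 with a neuron left out. Of the ends, Cacng2 end 1 reached 0.25 without the block, 1.66 in neurons of 3 rounds and 1.68 rescaled. Cacng2 end 2 reached 0.23 with the filter at 10 reads, 0.82, 3.36 and 2.05 in those 3 settings, and −0.39 to 0.37 with a neuron left out. Cnih2 end 1 reached 0.19 with that filter, 0.36, 0.32 and 2.07 in the same settings, 0.050 in neurons of 2 rounds, and −0.24 to 0.29 with a neuron left out. The ratios to Gria2 of Cacng2 and Cnih2 came to −0.38 and −0.25 without neuron 9, and ranged up to 1.23 and 1.10 with another neuron left out.

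Without neuron 15, the Gria2 share in listed ends differed by 17.3 percentage points, and the difference passed the threshold without neuron 7 (adjusted p = 0.0232, exact sign-flip permutation test, alternative chosen after the values were seen). With at least 20 reads it stayed at 23.2. Cacng8, Cacng3 and Gria3 had the fewest dendrites with 10 reads (0, 3 and 6), and 3 neurons (9, 15 and 16) held the lowest and highest dendritic Gria2 counts.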
